A study of Auxenochlorella pyrenoidosa with 8 samples.

Results

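A group of 52 genes of the unicellular green alga Auxenochlorella pyrenoidosa was defined by a strong rise in transcript level 4 h after a culture was moved from CO2-enriched gas to air, followed by a return towards the starting level at 24 h. These are 52 of the 10283 genes of the deposited table. They were chosen by their measured RPKM, the reads assigned to a gene scaled to its length and to the assigned reads of the library. A member had a mean of at least 10 RPKM at 4 h and a log2 ratio of RPKM + 1 of at least 2 between 4 h and 0 h, and kept less than 0.5 times that log2 change at 24 h. The levels at 0 h, 4 h and 24 h, and their differences, therefore describe the choice. Counts of calls in contrasts among these times are printed beside the share over all tested genes as descriptions, and nothing is read from them. The libraries labelled 1 h were not read by the rule.

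Libraries were made from strain FACHB-9 in 4 groups of 2, from cells grown in light on 5% CO2 for 5 days and then bubbled with air for 0, 1, 4 or 24 h. All groups share the growth on 5% CO2, and the 0 h group was never in air. The submitters describe 2 independent experiments handled in a single batch. No culture kept on 5% CO2 after 0 h was analysed here, so time in culture and the transfer itself cannot be told apart from the change of gas.

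Green algae that live on dissolved inorganic carbon are known to answer low CO2 with a carbon-concentrating mechanism, in which bicarbonate transporters and carbonic anhydrases raise CO2 around the enzyme Rubisco. In the relative Chlamydomonas reinhardtii many genes of this mechanism are known to be induced when CO2 falls. The files pair the gene numbers of the FACHB-9 models with no name or product. Of 6 gene lists drawn up by keyword for this organism and treatment, 0 could be measured. The members are therefore given by number, position and model structure, and no role is assigned to any of them.

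Libraries labelled 1 h and 24 h did not always resemble their own replicate. Across the 52 members, log2(RPKM + 1) correlated at r = 0.649 between the 1 h libraries and at 0.734 between the 24 h libraries, but at 0.948 between 1 h library 2 and 24 h library 1, and at 0.991 between 1 h library 1 and 24 h library 2. The 4 h pair correlated at 0.988 and the 0 h pair at 0.978. Over all 9326 tested genes the same crossing held, with r = 0.954 and 0.934 within the 1 h and the 24 h label, against 0.992 between 1 h library 2 and 24 h library 1 and 0.980 between 1 h library 1 and 24 h library 2. Over the same genes the 0 h pair correlated at 0.968, below both crossed pairs, and the 4 h pair at 0.993. Whether labels were exchanged was not tested, so a value given for 1 h or 24 h is that of the library so labelled. The rule, too, took its 24 h values by label. These correlations run over members, which are not replicates, and describe the libraries only. Assigned reads ranged from 16706278 to 35463138 per library. Values at 1 h and 24 h are given for each library. Calls at 1 h against 0 h and at 4 h against 1 h, the membership and the shares of the rise were also taken with single libraries left out. The calls of the other contrasts and the library classes were not.

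At 4 h the members took a larger part of the messenger RNA pool than at any other time sampled. Together they held 0.387% and 0.376% of the assigned reads in the 0 h libraries, 0.761% and 0.971% in the 1 h libraries, 3.37% and 3.38% in the 4 h libraries, and 0.789% and 0.831% in the 24 h libraries. Both 4 h libraries stood above all 6 others, and both 0 h libraries below. The median member had 7.51 and 8.88 RPKM at 0 h, 17.9 and 45.1 RPKM at 1 h, 169 and 165 RPKM at 4 h, and 23.1 and 21.7 RPKM at 24 h. Over the 9326 tested genes, those whose mean over all libraries reached 1 RPKM, the library medians lay between 12.3 and 14.7 RPKM. In a bulk culture, a change in the share of cells that express a gene and a change in its RNA per cell cannot be told apart.

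**Figure D1:**
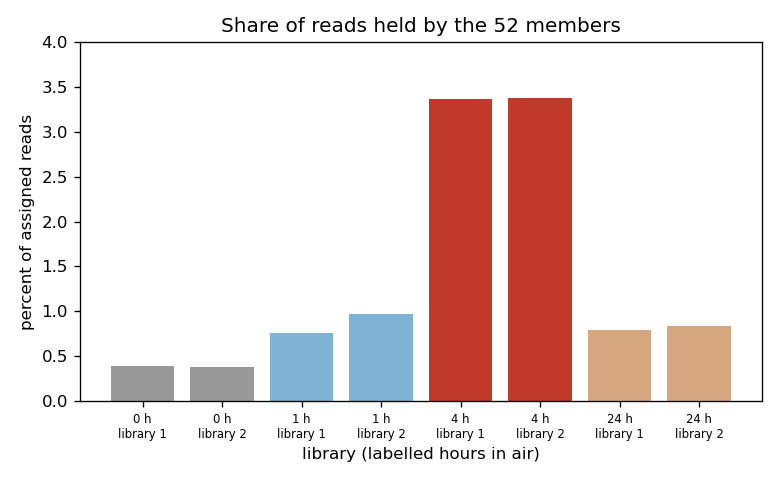
Percent of all assigned reads that fell in the 52 members (vertical axis) in each of the 8 libraries, ordered by labelled hours in air. Each bar is 1 library; the 4 h bars stand at 3.37% and 3.38%, against 0.387% and 0.376% at 0 h.

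The members differed widely in the size of the rise and in their starting level. The log2 ratio of RPKM + 1 at 4 h over 0 h ran from 2.06 to 7.45 with a median of 3.06, and it was at least 4 in 19 members and at least 6 in 4. At 0 h, 27 members had a mean under 10 RPKM and 3 had a mean under 1 RPKM, while the highest stood at 240 RPKM. At 4 h, 34 members reached 100 RPKM and the 3 highest averaged 3290, 1105 and 1004 RPKM. The limma fit over all tested genes called 41 of the 52 higher at 4 h than at 0 h (Benjamini-Hochberg adjusted p under 0.05), where 2.16% of all tested genes were called higher. The largest rises, in g158, g7350 and g7349, were not among the 41. The fit gives each gene 1 spread from all 4 times, and the SE of g158 was 1.92 in every contrast. Disagreement within the 1 h and 24 h pairs thus enters the calls of 4 h against 0 h. The median fitted log2 change was 3.06 in members, against -0.20 over all tested genes. The rule used this contrast.

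**Figure D2:**
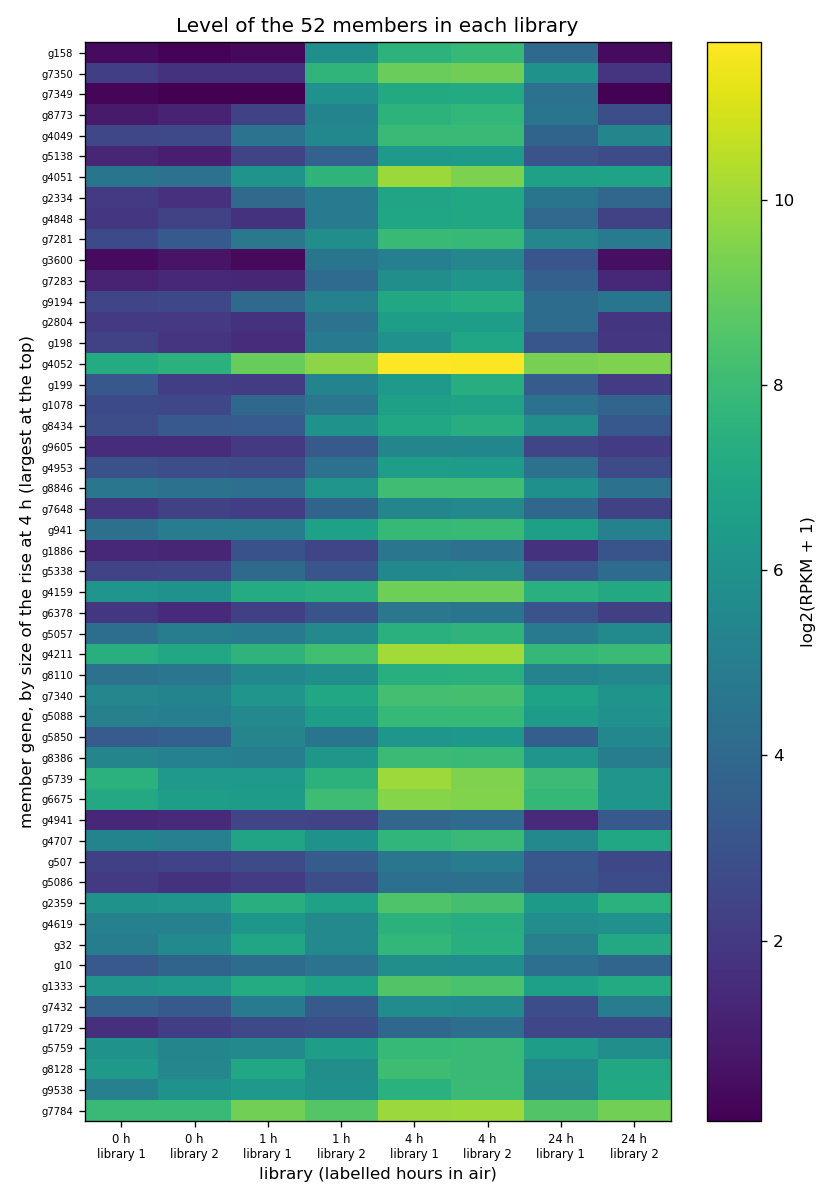
Level of each of the 52 members (rows, largest 4 h rise at the top) in each of the 8 libraries (columns), coloured by log2(RPKM + 1). The 4 h columns are the brightest in every row, and many rows near the top are dark in 1 h library 1 and 24 h library 2 but not in 1 h library 2 and 24 h library 1.

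The 4 largest log2 ratios belonged to genes with low levels on 5% CO2, at most 3.62 RPKM in a 0 h library. g158 lies on scaffold00012 (717600 to 720243, minus strand), with 978 coding bases in 7 exons. It had 0.317 and 0.115 RPKM at 0 h, 0.212 and 57.6 RPKM at 1 h, 189 and 234 RPKM at 4 h, and 15.4 and 0.293 RPKM at 24 h. Its 0 h level rested on 14 and 7 reads. One library of 1 h and one of 24 h were thus at the 0 h level, and the other of each pair lay well above it, below both 4 h libraries.

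g7349 and g7350 are next to each other on the plus strand of scaffold01012. g7349 (314908 to 318875; 1602 coding bases in 7 exons) had 0.196 and 0.0436 RPKM at 0 h, 0.0354 and 59.8 RPKM at 1 h, 138 and 144 RPKM at 4 h, and 20.7 and 0.078 RPKM at 24 h. For g7350 (324584 to 325641; 465 coding bases in 3 exons) the values were 3.62 and 2.37 RPKM at 0 h, 2.35 and 207 RPKM at 1 h, 523 and 576 RPKM at 4 h, and 65.4 and 2.44 RPKM at 24 h. Both showed the library pattern of g158. The log2 ratios of 4 h over 0 h were 7.45 for g158, 7.11 for g7350 and 6.98 for g7349, and the 0 h level of g7349 rested on 13 and 4 reads.

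g8773, on scaffold01204 (344576 to 348120, plus strand; 1488 coding bases in 10 exons), had a log2 ratio of 6.66. It had 0.844 and 1.21 RPKM at 0 h, 3.96 and 39.0 RPKM at 1 h, 191 and 218 RPKM at 4 h, and 23.0 and 6.20 RPKM at 24 h. Unlike in g158, no library of 1 h or 24 h was as low as the 0 h libraries, and none was as high as those of 4 h.

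By 4 h mean, the most abundant member was g4052, a compact gene of scaffold00514 (2035313 to 2036037, plus strand; 231 coding bases in 3 exons). It had 147 and 180 RPKM at 0 h, 511 and 823 RPKM at 1 h, 3343 and 3238 RPKM at 4 h, and 635 and 691 RPKM at 24 h. The 0 h libraries lay below all others, the 4 h libraries far above, and those of 1 h and 24 h overlapped in between. At 4 h it ranked 4 among all 10283 genes in RPKM, and 6 when the same reads were divided by the spliced length. The deposited RPKM refer to the gene's full span, introns included, so levels are compared between genes on both lengths.

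Next in 4 h level came g4211, g7784 and g5739. g4211, with 3 exons on the plus strand of scaffold00557 (67636 to 69402), had 166 and 130 RPKM at 0 h, 195 and 288 RPKM at 1 h, 1104 and 1106 RPKM at 4 h, and 226 and 258 RPKM at 24 h. g5739, with 4 exons on the minus strand of scaffold00825 (300989 to 302222), had 182 and 80.6 RPKM at 0 h, 78.5 and 186 RPKM at 1 h, 1010 and 702 RPKM at 4 h, and 259 and 69.9 RPKM at 24 h. In g5739 the libraries of 0 h, 1 h and 24 h overlapped, and those of 4 h stood apart. Among the 50 genes with the highest RPKM there were 5 members at 4 h and 0 at 0 h, and per spliced length there were 3 at 4 h and 0 at 0 h.

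The 4 h libraries agreed closely for most members, with a median coefficient of variation of 5.90% (n = 2 libraries). It exceeded 20% in 5 members. The widest gaps were in the neighbours g198 and g199 on the plus strand of scaffold00012 (951532 to 956426 and 957742 to 959741). g198 had 60.8 and 120 RPKM at 4 h, against 3.86 and 2.52 RPKM at 0 h, and g199 had 81.5 and 159 RPKM at 4 h, against 8.35 and 3.51 RPKM at 0 h. In both genes 4 h library 2 was nearly 2-fold above 4 h library 1, with no overlap with the 0 h libraries, and 1 h library 1 and 24 h library 2 were within or below the range of the 0 h libraries.

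The earliest sample asks how much of the change was in place after 1 h. No member was called at 1 h against 0 h, nor was any of the 9326 tested genes (0%). The smallest adjusted p was 0.114 (limma). A limma fit on the reads recovered from the RPKM, weighted by voom, likewise called 0. Without adjustment, at p under 0.05, 27 of the 52 members were higher at 1 h, where 2.14% of all tested genes were. The fitted log2 change was above 0 in 51 of 52 members, with a median of 1.10, and its median over all tested genes was -0.08. Both 1 h libraries exceeded both 0 h libraries in 30 members (57.7%), against 13.0% of all tested genes. This contrast shares its 0 h libraries with the rule, which favours genes that were low in them.

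The 1 h libraries contributed unequally. Relative to the 0 h mean of logs, the median member stood at 0.65 on the log2 scale in 1 h library 1 and at 1.42 in 1 h library 2. 1 h library 2 was at least 2-fold above 1 h library 1 on RPKM + 1 in 25 members, against 2.49% of all tested genes, and the reverse held in 3 members, against 2.41%. When 1 h library 1 and 24 h library 1 were dropped together, limma called 27 members higher at 1 h than at 0 h, among 100 of all 9326 tested genes. When both libraries 2 were dropped instead, it called 0 members and 0 genes. In each of these fits the spread came from the 0 h and 4 h pairs alone, so the calls are not read as changes at 1 h.

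As a share of the way from the 0 h mean to the 4 h mean, in log2(RPKM + 1), the median member had covered 22.2% in 1 h library 1 and 45.7% in 1 h library 2. The range over members was -22.2% to 70.8% in the first and -7.15% to 86.0% in the second. In the 24 h libraries, where the rule limits the value, the median member stood at 36.6% in library 1 and 29.7% in library 2. All 52 members were below both 4 h libraries in each of these 4 libraries. Among the 13 genes that met the same level and rise but kept 0.5 times or more of the log2 change at 24 h, the medians at 1 h were 36.0% and 68.1%. This difference was not tested.

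**Figure D3:**
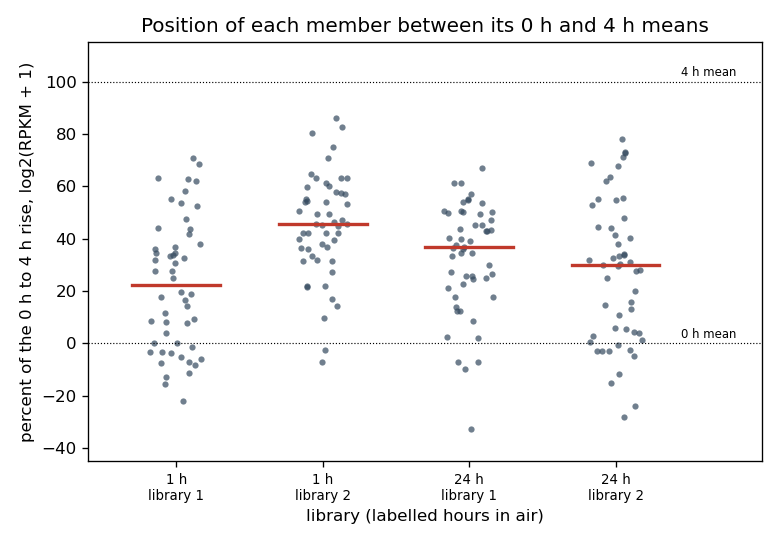
Position of each of the 52 members (points) between its 0 h mean (0%) and its 4 h mean (100%) on the log2(RPKM + 1) scale, in the libraries labelled 1 h and 24 h. Red lines are medians over members, at 22.2%, 45.7%, 36.6% and 29.7% from left to right; no point reaches 100%.

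The members at the ends of this range differed in shape. On the mean of both 1 h libraries the highest shares were 53.9% in g5850 and 51.8% in g2334. g5850, with 9 exons on the minus strand of scaffold00844 (76077 to 79160), had 9.57 and 11.2 RPKM at 0 h, 40.2 and 22.9 RPKM at 1 h, 71.8 and 76.1 RPKM at 4 h, and 10.9 and 43.9 RPKM at 24 h. g2334, with 4 exons on the plus strand of scaffold00251 (262303 to 265867; 2631 coding bases), had 3.02 and 2.28 RPKM at 0 h, 16.1 and 28.6 RPKM at 1 h, 114 and 130 RPKM at 4 h, and 23.1 and 14.04 RPKM at 24 h. g2334 was the member with the smallest adjusted p at 1 h (log2 change 2.63, SE 0.32, limma adjusted p = 0.114), and its libraries of 1 h and 24 h overlapped each other but not those of 0 h or 4 h.

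The lowest shares at 1 h were -0.0965% in g5739 and 14.2% in g8386. g8386, a model cut off at the first base of scaffold01155 (1 to 2130, minus strand), had 40.01 and 34.6 RPKM at 0 h, 32.2 and 74.1 RPKM at 1 h, 258 and 241 RPKM at 4 h, and 70.4 and 29.6 RPKM at 24 h. In both genes a library of 1 h and a library of 24 h lay below both 0 h libraries, and the other library of each time lay above both.

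A set of 4 classes, drawn up after the values had been seen and so not tested, describe the 1 h and 24 h libraries. Each library was set against the 0 h mean with a 2-fold limit on RPKM + 1. In 16 members 1 h library 2 and 24 h library 1 were raised while 1 h library 1 and 24 h library 2 stayed within 2-fold, which held for 1.39% of all tested genes. This class contained g158, g7349, g7350, g198, g3600 and g4953, and its median log2 rise at 4 h was 4.28. In 7 members the opposite libraries, 1 h library 1 and 24 h library 2, were raised and the others were not, against 0.247% of all tested genes. Their median rise was 2.28, and they included g32, g7432, g8128 and g7784.

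In 9 members all 4 libraries were raised at least 2-fold, against 0.161% of all tested genes. Among these were g4049, g4051, g4052, g5138, g8773 and g9194, and their median log2 rise at 4 h was 5.07. In 8 members all 4 libraries were within 2-fold of the 0 h mean, as in 86.7% of all tested genes, and g4211, g5739 and g8386 were among them. The other 12 members showed other mixtures. The classes rest on values related to those of the rule, which bounds the 24 h mean and sets it against the 0 h mean, so their shares are not on equal terms with those of all genes.

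The class that opposed the larger one was plain in single genes. g32, with 4 exons on the minus strand of scaffold00009 (141467 to 143330), had 29.7 and 49.1 RPKM at 0 h, 121 and 44.7 RPKM at 1 h, 218 and 171 RPKM at 4 h, and 34.0 and 135 RPKM at 24 h. g7432, with 10 exons on the plus strand of scaffold01012 (783968 to 787452), had 11.98 and 8.84 RPKM at 0 h, 27.6 and 9.15 RPKM at 1 h, 50.5 and 48.7 RPKM at 4 h, and 5.92 and 30.8 RPKM at 24 h. Library 1 was the higher at 1 h and library 2 at 24 h in both, the mirror of g158. The part that sample labels, culture or handling play in this was not tested.

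**Figure D4:**
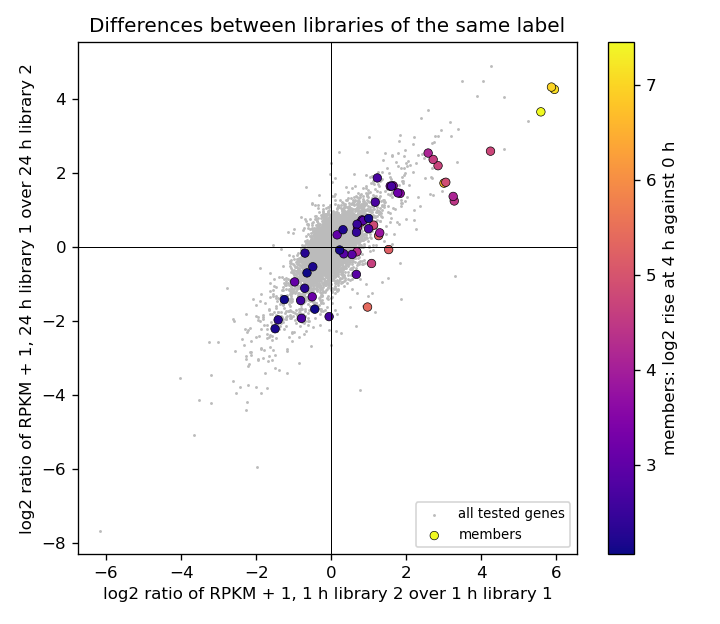
Log2 ratio of RPKM + 1 between the 1 h libraries (horizontal, library 2 over library 1) and between the 24 h libraries (vertical, library 1 over library 2) for all 9326 tested genes (grey) and the 52 members (coloured by log2 rise at 4 h). The ratios were on the same side of 0 in 44 of 52 members and in 6529 of the 9326 tested genes, and 3 members with rises near 7 lie far to the upper right.

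The members stood higher at 4 h than in the libraries labelled 1 h. The 4 h libraries lay above both 1 h libraries in all 52 members, against 17.1% of all tested genes, and the fitted log2 change had a median of 2.30, against -0.10 over all tested genes. limma called 11 of the 52 higher at 4 h than at 1 h (adjusted p under 0.05), where 16 of 9326 tested genes were called higher (0.172%). This contrast shares its 4 h libraries with the rule, which asks for a high level there, so the excess of members is not independent of the choice. The 11 calls fell to 0 when a single library of 0 h or of 4 h, or 1 h library 1, was dropped, or when the fit held no other libraries than those of 1 h and 4 h, there were 12 without 1 h library 2, and 23, among 38 genes called higher in all, without either library of 24 h.

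The calls did not follow the size of the change alone. Among called members the largest change was that of g5138 on scaffold00704 (508519 to 513223, plus strand; 1167 coding bases in 12 exons). It had 78.2 and 86.9 RPKM at 4 h, against 4.52 and 12.3 RPKM at 1 h, a log2 change of 3.29 (SE 0.38, limma adjusted p = 0.0213). g9605, on scaffold01246 (447308 to 454601, minus strand), has the longest coding sequence among members, 3330 bases in 10 of its 11 exons. It had 39.4 and 41.4 RPKM at 4 h, against 3.01 and 8.87 RPKM at 1 h (log2 2.72, SE 0.38, limma adjusted p = 0.0416).

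g9194, with 12 exons on the plus strand of scaffold01211 (613611 to 618155), had 132 and 154 RPKM at 4 h, against 16.2 and 35.2 RPKM at 1 h (log2 2.53, SE 0.34, limma adjusted p = 0.0368). g2334 changed by 2.45 on the log2 scale (SE 0.32, limma adjusted p = 0.0326). The other 7 called members were g1078, g5057, g4052, g4211, g5086, g4159 and g8110, with log2 changes between 1.75 and 2.43. Over 20 alternative settings each of the 11 was called in 8 to 13, and the highest adjusted p of each was 0.312 to 0.375 (limma). By comparison, g158 had a log2 change of 4.65 with an SE of 1.92 (limma adjusted p = 0.379), and its 1 h libraries stood at 0.212 and 57.6 RPKM.

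By 24 h the means had come down from 4 h by a median of 4.67-fold over members. The smallest reduction was 2.08-fold in g7784 and the largest 27.0-fold in g158. limma called 16 members lower at 24 h than at 4 h, where 0.375% of all tested genes were called lower, and 0 members higher at 24 h than at 0 h, where again 0% of all tested genes were called. Without adjustment, at p under 0.05, 22 members were higher at 24 h than at 0 h, against 4.12% of all tested genes. The rule used the values of both contrasts, so these counts are not independent of the choice of members. The rule caps the 24 h change but does not ask for a level above that of 0 h. These calls were not repeated with single libraries left out. The membership itself depended on the 24 h libraries. With 24 h library 1 left out of the rule 48 genes were chosen, and with library 2 left out 44, of which 40 were members in each case.

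On the 24 h mean g199 kept the smallest part of its log2 rise, 0.0278, but its 24 h libraries stood at 17.8% and -15.4% of the rise. In library 1 alone the lowest member was g7432 at -32.8%, and in library 2 alone g5739 at -28.1%. The neighbour of g199, g198, kept 0.136, with 9.84 and 3.17 RPKM for g199 and 7.99 and 2.77 RPKM for g198 at 24 h. At the other end g7784 kept 0.487. This gene, with 7 exons on the plus strand of scaffold01012 (2629673 to 2632747), had 236 and 244 RPKM at 0 h, 591 and 379 RPKM at 1 h, 998 and 1009 RPKM at 4 h, and 368 and 595 RPKM at 24 h.

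g7784 was also the member just inside 2 of the thresholds, with a log2 rise of 2.06 at 4 h. Just outside were g4620, with a log2 rise of 1.94 and a 4 h mean of 509 RPKM, and g7279, which kept 0.502 of a log2 rise of 5.59. On the 4 h level, the lowest member was g4941 at 15.3 RPKM, and the gene just outside was g7356 at 8.64 RPKM, which had a log2 rise of 3.12. g4941, with 6 exons on the plus strand of scaffold00653 (1 to 2453), had 1.56 and 1.71 RPKM at 0 h, 4.66 and 4.45 RPKM at 1 h, 14.03 and 16.6 RPKM at 4 h, and 1.72 and 8.98 RPKM at 24 h.

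Some members lay side by side in the genome, which the rule did not use. The longest run of strongly induced models was on scaffold00514, where 4 consecutive models, g4049 to g4052, spanned 16984 bp and all had a log2 ratio above 4 at 4 h over 0 h. Of them 3 are members: g4049 (2019054 to 2024777, minus strand, 14 exons), g4051 (2032304 to 2033887, minus strand, 3 exons) and g4052. The fourth, g4050, had a log2 ratio of 7.35 but kept 0.524 of it at 24 h. The models on either side, g4048 and g4053, changed by 0.48 and -0.72.

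g4049 had 4.73 and 5.16 RPKM at 0 h, 21.6 and 43.4 RPKM at 1 h, 246 and 246 RPKM at 4 h, and 12.9 and 41.5 RPKM at 24 h. For g4051 the values were 22.8 and 20.1 RPKM at 0 h, 66.4 and 194 RPKM at 1 h, 983 and 683 RPKM at 4 h, and 105 and 110 RPKM at 24 h. In g4049 24 h library 2 was the higher of its pair, whereas in g4050, between g4049 and g4051, it was the lower, at 20.01 RPKM, against 132 RPKM in library 1.

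In all, 6 members had another member as the next model, and 11 had one with at most 2 models between. Counts of this kind were not made over all genes. Counting also the 13 strongly induced genes that were held at 24 h, 14 members had such a gene with at most 2 models between, and 8 had one as the next model. The closest of these pairs was g4952 and g4953, which start 105 bp apart on opposite strands of scaffold00661 and point away from each other. Some non-member models next to members were also higher at 4 h. Of the 80 that were tested, 9 (11.3%) had a log2 ratio of at least 1 at 4 h over 0 h, against 2.36% of all tested genes. The 9 include the held genes g4050 and g4952, and the 2.36% includes the members. The median over the 80 was -0.23, against -0.20 over all tested genes. Neighbours can share reads where models touch, and the sources used here do not say whether the counting used strand. Near-identical copies could not be looked for.

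**Figure D5:**
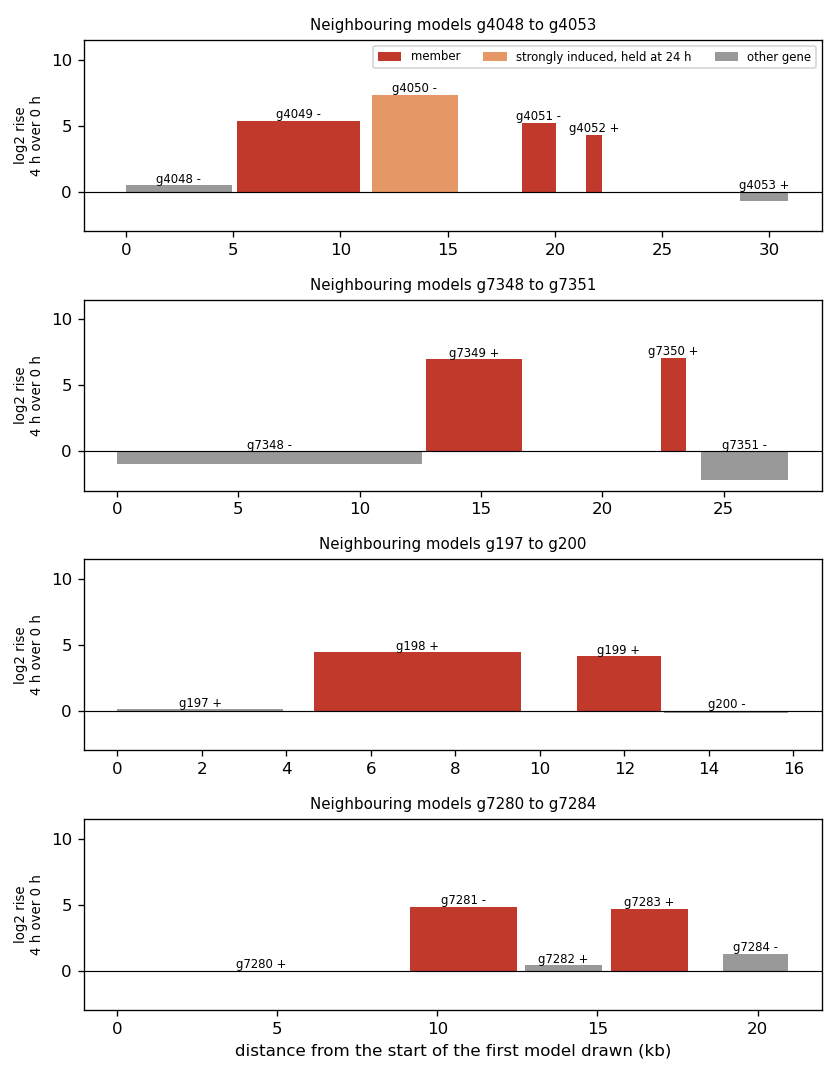
Log2 ratio of RPKM + 1 at 4 h over 0 h (vertical) of consecutive gene models, drawn to scale along 4 stretches by distance in kb from the first model shown, with the strand after each number. Red marks members, orange a strongly induced gene held at 24 h and grey other genes. The grey genes run from -2.18 in g7351 to 1.27 in g7284. The 0 h libraries of g7351 lay far apart, at 5.88 and 31.8 RPKM, against 3.33 and 3.42 RPKM at 4 h. Among the grey genes g200 was under 1 RPKM in every library, where RPKM + 1 can show little change.

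The models of the members resembled those of other genes. The median member had 7.5 exons, a coding length of 1006.5 bp, a span of 2909 bp and 44.5% of the span in the spliced transcript, where the medians of all tested genes were 7 exons, 1012 bp, 2959 bp and 43.8%. Summed untranslated length had a median of 262 bp in the 47 members with a complete frame and both transcript ends, against 255 bp. A start and a stop codon were both present in 48 of 52 members (92.3%), against 86.0% of all tested genes. The median AUGUSTUS prediction score was 0.1 in members and 0.11 in all tested genes. None of the members had more than 1 predicted transcript, against 1.51% of all tested genes, and 28 of 52 were on the plus strand. They fell on 32 scaffolds.

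The 1 member with the most exons and the 1 with the fewest had like profiles. Both were in the class raised only in 1 h library 2 and 24 h library 1. g4953 had the most exons, 30 over a span of 12113 bp on the plus strand of scaffold00661 (21576 to 33688), and held 6.67 and 6.07 RPKM at 0 h, 5.76 and 20.3 RPKM at 1 h, 91.5 and 89.6 RPKM at 4 h, and 20.7 and 5.83 RPKM at 24 h. g3600, the member with a single exon, lies on the minus strand of scaffold00432 (1591 to 2611) and held 0.293 and 0.594 RPKM at 0 h, 0.275 and 23.3 RPKM at 1 h, 32.5 and 43.1 RPKM at 4 h, and 7.83 and 0.455 RPKM at 24 h. In both, 1 h library 1 and 24 h library 2 were at or within the 0 h range or just under it, and the other libraries of 1 h and 24 h were above it. The 0 h level of g3600 rested on 5 and 14 reads.

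g5086 followed in exon number, with 23 on the minus strand of scaffold00704 (192930 to 201962). It had 3.07 and 2.40 RPKM at 0 h, 3.34 and 5.94 RPKM at 1 h, 19.0 and 19.4 RPKM at 4 h, and 7.71 and 5.56 RPKM at 24 h. No other library of g5086 came near those of 4 h. Because of its introns its rank among all genes at 4 h was 3480 in RPKM over the full span and 1813 per spliced length.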

How the data were processed

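mRNA libraries of 8 samples were grouped by the labels into 4 times with 2 libraries each. The values of the 10283 genes are RPKM as the authors deposited them, per the file headers. The submitters' processing notes name TopHat and HTSeq, and the sources used here give neither versions nor settings. The deposited AUGUSTUS models carry a prediction score and start and end positions, per the file headers, counted from 1. Multiplied by end minus start and by each library's own scale, 100% of the RPKM values came out as whole reads within 0.01 reads, and these reads summed to 16706278 to 35463138 per library.

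limma 3.58.1 in R 4.3.3 was fitted across all genes whose mean reached 1 RPKM (9326; 957 were left out, and all 52 members passed) on log2(RPKM + 1), with 4 groups, an intensity trend and robust moderation. Calls needed an adjusted p under 0.05 (Benjamini-Hochberg over all tested genes, two-sided). Fold changes on this scale understate the change of low genes. The fit was tested on simulated data, drawn for each library independently from the fit's own spreads and changed at 4 h alone. That setting holds no crossed disagreement of the 1 h and 24 h pairs, so it does not bear on calls under it. For the calls at 1 h against 0 h and at 4 h against 1 h, alternatives changed the pseudocount, filter, scaling, test, groups, block and single libraries. The members, gene lists and tests were chosen with earlier results of these data known. By rule, the named members were those with the largest rise, 4 h level or called change from 1 h (4 each), the largest and smallest share at 1 h and exon number (2 each), up to 3 neighbouring pairs, and the genes at each threshold; g32 and g7432, the other members called between 1 h and 4 h, the members listed under the library classes, g4049 and the neighbours were added after their values were seen. In the main fit each p-value rests on 1 spread per gene. That spread is pooled from the 2 libraries of each of the 4 times and moderated across genes. It is not the spread of the compared times alone.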

Additional observations from a re-analysis of the deposited data

Results flagged for a closer look

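In 11 of the 52 members the fit called the level at 4 h higher than at 1 h, that is, the changes from 0 h differed between the times (limma, adjusted p under 0.05), against 0.172% of all tested genes. Both 4 h libraries lay above both 1 h libraries in 52 of 52 members, against 17.1% of all tested genes. Members were chosen for high values in these 4 h libraries, so the counts are partly set by the choice. The 11 calls fell to 0 when a single library of 0 h or 4 h, or 1 h library 1, was dropped, and with the replicate number as a block.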

How the results depend on the processing

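The number of members stayed between 44 and 56 under other pseudocounts, scalings, minimum levels and single libraries left out. No member was called at 1 h against 0 h in the other alternatives run, and 27 were when library 1 of both 1 h and 24 h was dropped, a setting chosen after seeing the data in which the spread came from the 0 h and 4 h pairs alone. For 4 h against 1 h, 11 members were called, against 6 with no filter, 0 with only the groups compared and 0 with the replicate number as a block; the cause was not tested. Dropping library 1 of both times gave 41 (136 of all 9326 tested genes) and library 2 of both times 40 (73 genes), and leaving out single libraries gave 0 to 23 (0 to 38 genes). The other tests and scalings gave 8 to 14. The labels do not say that a replicate number marks the same experiment, and deviations of same-numbered libraries did not go together in every pair of times: they correlated at 0.0135 (0 h with 1 h), 0.35 (0 h with 4 h), 0.085 (0 h with 24 h), 0.105 (1 h with 4 h), 0.157 (4 h with 24 h) and -0.728 (1 h with 24 h). The fit with the block is therefore given as an alternative. The share of the rise held at 24 h was 30.6% at the median over both libraries and ranged from 29.7% to 36.6% with 1 library left out, and at 1 h it was 36.3%, between 22.2% and 45.7%. Of the library classes, the members raised in all 4 libraries came to 5 with a pseudocount of 5 RPKM, and those within 2-fold in all 4 to 13 there and to 3 under trimmed-mean scaling. Depth limits the 0 h level of a few members, at lowest the 17 reads of g7349 over both libraries.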
